A study of Arabidopsis thaliana with 3 samples.

Results

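Brassinosteroids are the steroid hormones of plants, and the 10 genes described here cover how the hormone is made and how it is perceived. They were picked out of the 37336 genes of the count table by gene identifier, a rule that uses no measured value. The 4 synthesis genes are DET2, DWF4, CPD and BR6OX2, and the 6 signalling genes are BRI1, BAK1, BIN2, BSU1, BZR1 and BES1. The samples were 3 libraries of polyadenylated RNA from whole Arabidopsis thaliana seedlings, wild type of the Col-0 ecotype and untreated, harvested when 7 days old from sucrose-containing agar medium in long days. The series asks how cohesin subunits take part in targeting H2A monoubiquitination, and these 3 libraries form 1 wild-type group, so levels and their spread are described and no genotype is compared.

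The hormone is built from plant sterols by a reductase and a chain of cytochrome P450 enzymes. At the cell surface it binds a receptor kinase, which pairs with a coreceptor kinase. The signal then passes through cytoplasmic kinases and a phosphatase that shut off a GSK3-like kinase, and this frees a small family of transcription factors to act in the nucleus. In seedlings the pathway is best known for driving cell elongation, and the transcription factors are known to repress several synthesis genes, which closes a feedback loop.

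The libraries held 32967215, 31761722 and 27069921 counts in replicates 1, 2 and 3. Levels below are CPM, that is, counts scaled to a common library size (TMM), and levels of different genes are compared as CPM per kb of merged exons. A gene counted as detected where all 3 libraries reached at least 1 CPM. The labels do not state whether the replicates were grown or harvested apart, so any p-value here measures only how these 3 samples differ, and that may be technical variation. Replicate 1 stood apart from the other libraries. The common biological coefficient of variation was 31.95% over the 3 libraries and 9.49% without replicate 1. Markers of the labelled tissue were unequal too. The 6 root hair markers summed to 1.10, 31.7 and 29.5 CPM in replicates 1, 2 and 3, with 6 of 6 lower in replicate 1 and 0 of 6 detected in all libraries. The 5 other root markers summed to 790, 2038 and 2105 CPM, with 4 of 5 lower in replicate 1 and NRT2.1 at 0 in each library. Most of that sum was PYK10, at 737, 1950 and 2014 CPM. CASP1 was at 1.88, 28.0 and 27.6 CPM and SHR at 17.4, 21.9 and 27.4 CPM. SCR differed little, at 33.65, 38.1 and 36.9 CPM. The 6 markers of green shoot tissue summed to 72250, 74220 and 72390 CPM, with 6 of 6 detected and 4 of 6 lower in replicate 1.

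Of the 10 genes, 9 were detected in each library, against 45.7% of all genes in the table. The phosphatase gene BSU1 was the exception. From high to low, the mean level ran CPD, BES1, BIN2, BRI1, BZR1, BAK1, DET2, BR6OX2, DWF4 and BSU1. The median of the 9 detected genes lay at percentile 66.2 of all detected genes by CPM per kb. Per kb of merged exons, each neighbour in this order was the higher one in 3 of 3 libraries, except BAK1 over DET2. That pair held its order in 2 of 3, with a log2 difference of 0.06 ± 0.36 (SD, n = 3). In whole seedlings, fewer cells of a type and less RNA per cell cannot be told apart, so each value is an average over all organs.

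**Figure D1:**
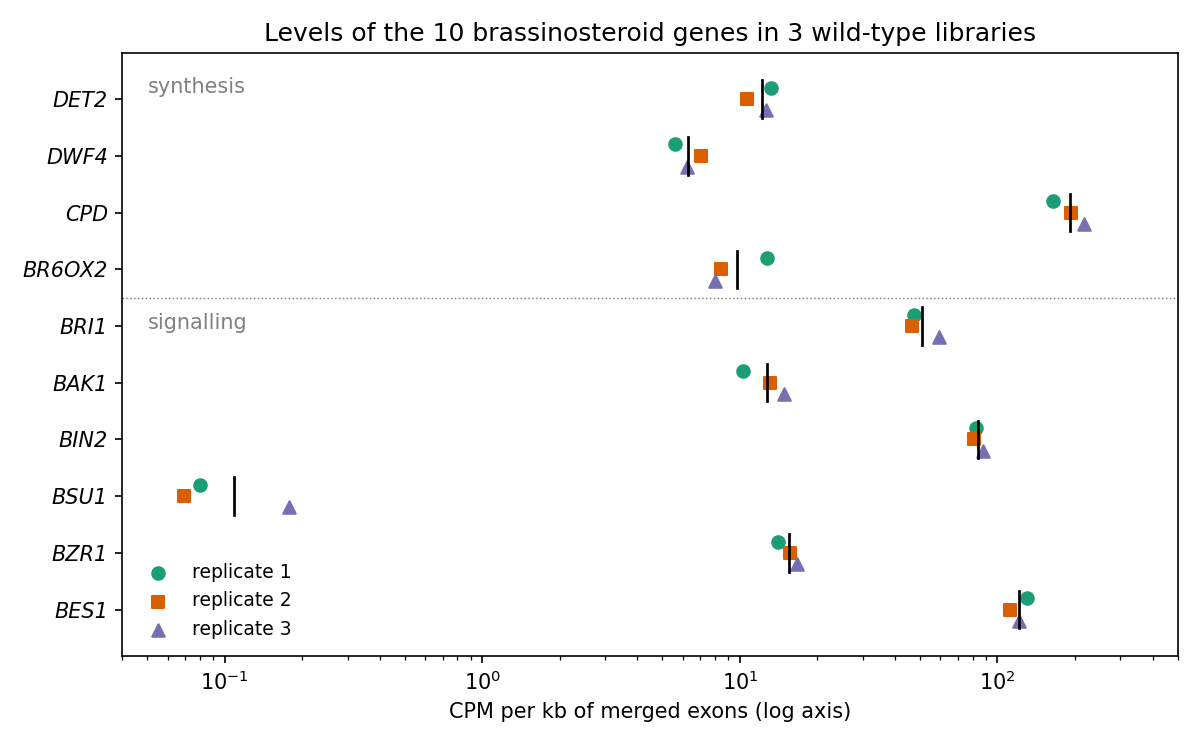
Levels of the 10 genes in CPM per kb of merged exons on a log axis, with 1 symbol per library and a black bar at the mean of 3 libraries; synthesis genes are above the dotted line and signalling genes below it. CPD and BES1 lie highest, BSU1 lies far below the rest at 0.0798, 0.0696 and 0.177 CPM per kb, and the 3 symbols of most genes sit close together.

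Among the synthesis genes, CPD had by far the highest RNA level. CPD (AT5G05690, chr5:1702640-1706948, minus strand, 8 exons) encodes the P450 enzyme CYP90A1, which acts on the steroid A ring. It stood at 164, 194 and 216 CPM per kb in replicates 1, 2 and 3, a mean of 191 ± 26.2 (SD, n = 3), at percentile 97.2 of detected genes. Per kb of merged exons it was the most abundant of the 10 in every library, and its lowest library was replicate 1. The lead over BES1 in replicate 1 rests on that length: in CPM per gene BES1 was at 317.3 and CPD at 316.4. Per kb of coding sequence (1074 bases for BES1 and 1419 for CPD) BES1 was the higher in that library. The same held per kb of exon not shared with another gene. In replicates 2 and 3 CPD was the higher of the pair in CPM per gene too, at 374 and 417 against 273 and 294. Over 1.04% of its exon length it overlaps AT5G05680, a gene at 19.4, 11.8 and 10.6 CPM on the opposite strand.

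DWF4 (AT3G50660, chr3:18813949-18817405, minus strand, 7 exons) encodes CYP90B1, the 22-hydroxylase often described as the flux-limiting step. It stood at 5.605, 7.04 and 6.22 CPM per kb, a mean of 6.29 ± 0.717 (SD, n = 3), at percentile 39.3. The level of DWF4 was below that of CPD in 3 of 3 libraries, by a log2 ratio of −4.90 ± 0.17 (SD, n = 3), which is 29.9-fold. Per kb of merged exons DWF4 was the lowest of the 4 synthesis genes in each library. Its order with BR6OX2 rests on that length: per kb of coding sequence DWF4 took 3.58%, 3.995% and 3.22% of the 7 synthesis enzymes in replicates 1, 2 and 3, and BR6OX2 took 6.05%, 3.57% and 3.07%. DWF4 was then the higher of the pair in replicates 2 and 3.

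DET2 (AT2G38050, chr2:15921136-15922321, minus strand, 2 exons) encodes the steroid 5-alpha-reductase of an early step. It stood at 13.2, 10.6 and 12.6 CPM per kb, a mean of 12.15 ± 1.35 (SD, n = 3). CPD lay above it by a log2 ratio of 3.96 ± 0.30, and DWF4 below it by −0.94 ± 0.32 (SD, n = 3 each). The DWF4 to DET2 order rests on the length correction: DET2 has 1101 bases of merged exons and DWF4 has 2844, and in CPM per gene the log2 ratio turned to 0.42. Over 3.18% of its exon length DET2 overlaps AT2G38040 on the opposite strand, a gene at 241, 174 and 151 CPM, and reads of this stretch may have been counted for either gene.

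BR6OX2 (AT3G30180, chr3:11810726-11813883, plus strand, 9 exons) encodes CYP85A2, which makes castasterone and converts it to brassinolide, the most active hormone form. It stood at 12.8, 8.48 and 8.01 CPM per kb in replicates 1, 2 and 3, a mean of 9.76 ± 2.64 (SD, n = 3). This was the widest relative spread of the 9 detected genes, with a coefficient of variation of 27%, and replicate 1 was the high library. Its paralogue BR6OX1, which carries out the C-6 oxidation only, was lower in each library, and BR6OX2 exceeded it by a log2 ratio of 2.89 ± 0.27 (SD, n = 3), which is 7.41-fold.

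As shares of the summed CPM per kb of the 7 enzymes specific to brassinosteroid synthesis, CPD took 81.7% ± 2.72, DET2 5.25% ± 0.958, BR6OX2 4.28% ± 1.62 and DWF4 2.70% ± 0.296 (SD, n = 3). The C-23 hydroxylase genes ROT3 and CYP90D1 took 4.84% ± 0.166 and 0.742% ± 0.0293, and BR6OX1 took 0.522% ± 0.107. The share of CPD was lowest in replicate 1, at 78.6% against 82.7% and 83.7% in replicates 2 and 3.

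**Figure D2:**
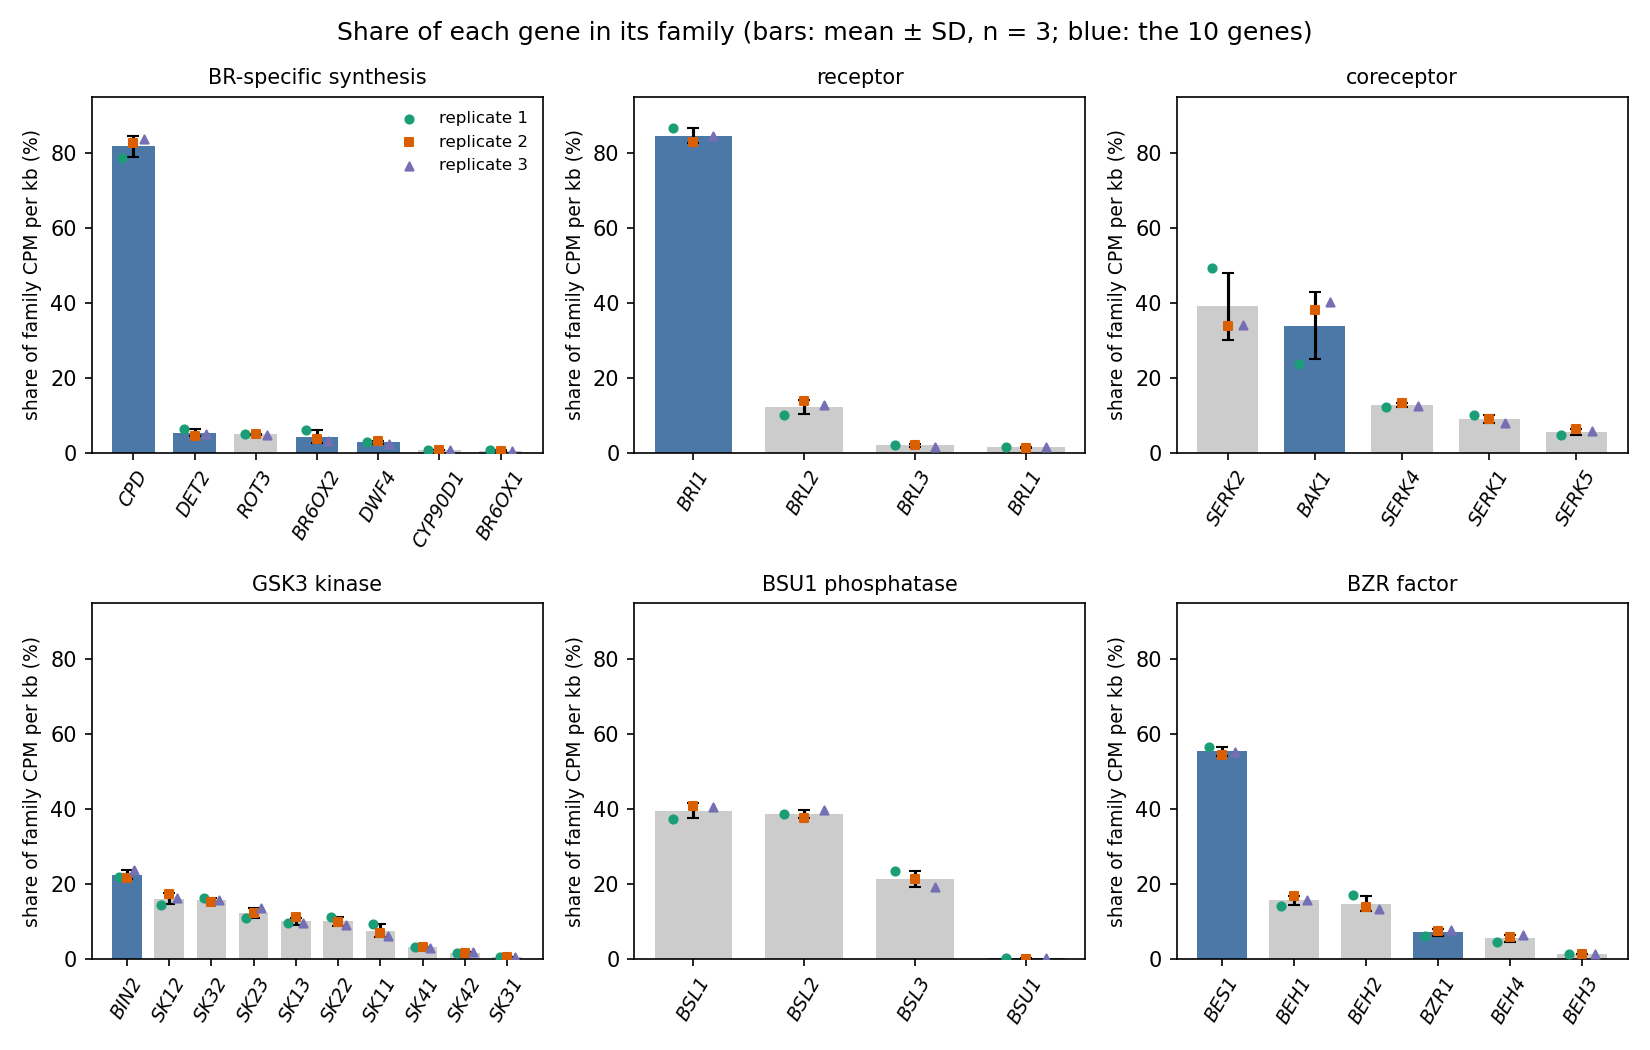
Share of each gene in the summed CPM per kb of its family, in percent; bars are means with SD over 3 libraries, symbols are libraries, and blue bars mark the 10 genes. The synthesis panel is a list of enzymes of different steps and not a gene family, and CPD holds over 50% of it. BRI1 and BES1 hold over 50% of their families, BIN2 leads a spread-out kinase family, and BSU1 holds 0.221% of its family.

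Of the summed RNA level of the receptor genes, 1 gene held most. BRI1 (AT4G39400, chr4:18324457-18328831, plus strand, 1 exon) encodes the main brassinosteroid receptor, a leucine-rich repeat kinase. It stood at 47.3, 46.5 and 59.1 CPM per kb, a mean of 50.95 ± 7.05 (SD, n = 3), at percentile 88.9, and its high library was replicate 3. BRI1 took 84.6% ± 1.92 of the 4-gene receptor family (SD, n = 3).

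The relatives of BRI1 were lower in every library. BRL1 and BRL3, which also bind the hormone, stood at 0.837 ± 0.156 and 1.13 ± 0.0505 CPM per kb (SD, n = 3). BRL2, a vascular relative not known to bind it, stood at 7.35 ± 1.73. The log2 ratio of BRI1 was 5.77 ± 0.04 to BRL1, 5.36 ± 0.25 to BRL3 and 2.80 ± 0.27 to BRL2, which are 54.6-fold, 41.2-fold and 6.95-fold.

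BAK1 (AT4G33430, chr4:16086311-16090832, minus strand, 12 exons) encodes the coreceptor kinase, also named SERK3, that pairs with BRI1 and with immune receptors. It stood at 10.3, 13.1 and 14.8 CPM per kb, a mean of 12.7 ± 2.28 (SD, n = 3), lowest in replicate 1. BRI1 exceeded it by a log2 ratio of 2.00 ± 0.18 (SD, n = 3), in 3 of 3 libraries.

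Within the SERK family the leading gene differed between libraries. BAK1 took 23.7%, 37.9% and 40.1% of the family in replicates 1, 2 and 3, and SERK2 took 49.3%, 33.7% and 34.0%. SERK2, a coreceptor better known from anther development, thus lay above BAK1 in replicate 1 and below it in replicates 2 and 3, with log2 ratios of BAK1 to SERK2 of −1.05, 0.17 and 0.23. BAK1 lay above SERK1, SERK4 and SERK5 in 3 of 3 libraries, by log2 ratios of 1.86 ± 0.58, 1.37 ± 0.37 and 2.53 ± 0.25 (SD, n = 3). SERK4 and SERK5 are close copies: 22.7% and 23.9% of their 100-base stretches occur elsewhere in the genome, so the split of their reads is uncertain. BAK1 shared 0% of its 50-base stretches, and 2.71% of its exon length overlaps AT4G33420 on the opposite strand, a gene at 17.4, 42.0 and 44.0 CPM.

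BIN2 (AT4G18710, chr4:10296138-10301228, plus strand, 11 exons) encodes the GSK3-like kinase that phosphorylates and holds back BZR1 and BES1 until the hormone is sensed. It stood at 82.3, 80.9 and 88.1 CPM per kb, a mean of 83.8 ± 3.81 (SD, n = 3), at percentile 93.4. With a coefficient of variation of 4.55%, it was the steadiest of the 9 detected genes.

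BIN2 led its family without dominating it. It took 22.5% ± 1.20 of the summed level of the 10 GSK3-like kinase genes (SD, n = 3), followed by SK12 with 16.1% ± 1.48, SK32 with 15.85% ± 0.596, SK23 with 12.3% ± 1.26, SK13 with 10.1% ± 0.910, SK22 with 10.1% ± 1.20 and SK11 with 7.58% ± 1.70. SK41, SK42 and SK31 took 3.20% ± 0.154, 1.73% ± 0.0858 and 0.551% ± 0.0923. Its closest relatives SK22 and SK23, which act beside it in the pathway, were lower in 3 of 3 libraries by log2 ratios of 1.16 ± 0.23 and 0.88 ± 0.10 (SD, n = 3). Over 5.93% of its exon length BIN2 overlaps AT4G18720, which had 0 counts. Per kb of coding sequence the BIN2 share was 30.2% ± 1.44.

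BSU1 (AT1G03445, chr1:854410-859701, minus strand, 22 exons) encodes a phosphatase with a Kelch domain that inactivates BIN2. It had 8, 6 and 13 counts in replicates 1, 2 and 3, a sum of 27 with a 95% exact Poisson interval of 17.8 to 39.3, which covers counting error only. These are 0.225, 0.196 and 0.499 CPM, each above the 3 counts that a count of 0 would allow (0.0843, 0.0981 and 0.115 CPM). The gene was thus read in every library, at a level below the threshold of detection and too low for the test of spread.

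The relatives of BSU1 were plainly detected. BSL1, BSL2 and BSL3, which encode the same kind of phosphatase, stood at 19.4 ± 4.45, 18.8 ± 3.68 and 10.25 ± 1.09 CPM per kb (SD, n = 3) and took 39.6%, 38.8% and 21.4% of the family. BSU1 took 0.221% ± 0.0937. All 3 BSL genes were lowest in replicate 1.

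The transcription factors at the end of the pathway were unequal. BES1 (AT1G19350, chr1:6688463-6691216, plus strand, 2 exons) stood at 130.2, 112 and 121 CPM per kb, a mean of 121 ± 9.18 (SD, n = 3), at percentile 95.4 and highest in replicate 1. BZR1 (AT1G75080, chr1:28185504-28188075, plus strand, 3 exons) stood at 14.0, 15.6 and 16.7 CPM per kb, a mean of 15.45 ± 1.34, at percentile 66.2 and lowest in replicate 1. Both encode DNA-binding factors that carry the brassinosteroid signal to target genes. BZR1 lay below BES1 in 3 of 3 libraries by a log2 ratio of −2.96 ± 0.21 (SD, n = 3), which is 7.79-fold.

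BES1 took 55.4% ± 1.09 of the 6-gene family and BZR1 7.11% ± 0.882 (SD, n = 3). The homologues BEH1 and BEH2 took 15.7% ± 1.27 and 14.8% ± 2.00, above BZR1, while BEH4 and BEH3 took 5.62% ± 0.924 and 1.36% ± 0.0180. Both counts carry a limit. The exons of BES1 overlap AT1G19360, on the opposite strand, over 33.6% of their length, and that gene was at 6.10, 11.7 and 11.9 CPM. The exons of BZR1 overlap AT1G09523 and AT1G75090, also on the opposite strand, over 26.1% of their length. AT1G09523 had 0 counts and AT1G75090 was at 1.52, 2.32 and 1.38 CPM. Over exon length not shared with another gene, BES1 took 63.3% ± 1.20 of the family, and the log2 ratio of BZR1 to BES1 was −3.12.

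BZR1 and BES1 are close paralogues, and the longest run of bases their exons share exactly is 71 bases, all of it coding. It is shown because reads that fall inside it cannot be assigned to 1 of the 2 genes by sequence. It runs at chr1:28186752-28186822 in BZR1 and at chr1:6689854-6689924 in BES1, plus strand in both, in RefSeq's TAIR10.1.
BZR1 and BES1 shared run: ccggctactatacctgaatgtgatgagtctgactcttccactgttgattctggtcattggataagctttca
Of all 50-base stretches, 1.24% of BZR1 and 0.94% of BES1 occur elsewhere in the genome. Of 100-base stretches, 0% do in either gene.

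BZR1 and BES1 are known to bind short motifs in the promoters of their targets, and several of the 10 genes are among those targets. The motifs searched, on both strands, were the brassinosteroid response element cores CGTGTG and CGTGCG, the G-box CACGTG and the E-box CANNTG, and a G-box is also an E-box. The windows below are the 250 bases upstream of the annotated gene start in TAIR10.1, written 5′ to 3′ on the strand of the gene, with every motif match in capitals. CPD and DWF4 are shown because they stood at opposite ends of the synthesis genes, and BZR1 and BAK1 because they held the response element cores. The windows lie at chr5:1706949-1707198 (minus strand) for CPD, chr3:18817406-18817655 (minus strand) for DWF4, chr1:28185254-28185503 (plus strand) for BZR1 and chr4:16090833-16091082 (minus strand) for BAK1.
CPD: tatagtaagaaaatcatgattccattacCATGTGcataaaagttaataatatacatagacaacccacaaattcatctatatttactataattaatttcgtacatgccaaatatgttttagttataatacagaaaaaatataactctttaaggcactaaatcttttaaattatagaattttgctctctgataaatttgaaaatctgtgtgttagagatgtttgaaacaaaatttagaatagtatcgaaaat
DWF4: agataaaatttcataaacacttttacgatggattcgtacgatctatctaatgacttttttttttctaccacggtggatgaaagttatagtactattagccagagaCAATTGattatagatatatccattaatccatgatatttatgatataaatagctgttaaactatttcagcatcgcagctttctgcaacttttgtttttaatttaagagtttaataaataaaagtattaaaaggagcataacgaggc
BZR1: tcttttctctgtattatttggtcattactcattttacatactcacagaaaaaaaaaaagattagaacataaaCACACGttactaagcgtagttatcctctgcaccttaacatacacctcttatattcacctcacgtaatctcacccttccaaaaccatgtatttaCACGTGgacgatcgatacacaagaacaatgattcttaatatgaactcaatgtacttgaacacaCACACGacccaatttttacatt
BAK1: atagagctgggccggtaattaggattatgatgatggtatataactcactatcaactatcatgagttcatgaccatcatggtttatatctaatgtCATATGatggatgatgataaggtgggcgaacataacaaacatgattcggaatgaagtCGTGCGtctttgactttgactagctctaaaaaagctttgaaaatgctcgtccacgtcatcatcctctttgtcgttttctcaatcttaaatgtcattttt
The BZR1 window held CGTGTG, read on the other strand as CACACG, at 178 and 22 bases upstream of the gene start and a G-box at 85 bases. The BAK1 window held CGTGCG at 99 bases. The CPD and DWF4 windows held 1 E-box each, at 222 and 145 bases, and no response element core.

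Either core occurred in the 250-base windows of 2 of the 10 genes, against 6.71% of 27443 protein-coding genes. CGTGTG was in 1 of 10 (5.37% of all), CGTGCG in 1 of 10 (1.57%), the G-box in 1 of 10 (6.49%) and the E-box in 7 of 10 (55.3%). In 1000-base windows, either core occurred in 4 of 10 genes, namely BRI1, BAK1, BZR1 and DWF4, against 21.1% of all genes. The E-box was in 10 of 10 against 96.2% of all genes. In the longer window BZR1 held a further CGTGTG match, 364 bases upstream, which is not shown. The 2 matches of BRI1 and DWF4 in the longer window lay 828 and 458 bases upstream. They are shown with 20 bases on each side and the core in capitals, at chr4:18323609-18323654 (plus strand) and chr3:18817838-18817883 (minus strand).
BRI1: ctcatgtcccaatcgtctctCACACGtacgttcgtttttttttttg
DWF4: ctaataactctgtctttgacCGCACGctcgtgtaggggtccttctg
A match is a string of letters and was not tested as a binding site in these libraries, and the absence of a match says only that the letters are not in that window.

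Across all 20 pairs of related or partner genes, 19 kept the same order in 3 of 3 libraries, and BAK1 with SERK2 was the exception. Per kb of coding sequence, or with no length correction, 18 did so, since DWF4 with BR6OX2 then changed order between libraries. With 3 libraries the smallest p of a two-sided exact permutation of signs is 0.25, which no pair can pass. The lowest Benjamini-Hochberg adjusted exact p over the 20 pairs was 0.263 (n = 3).

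The next question was how far each gene moved between libraries. The median SD of log2(CPM + 0.5) over the 3 libraries was 0.16 for the 9 detected genes and 0.25 for all detected genes. Of the 9 genes tested, 0 varied more than genes of similar abundance, against 2.03% of all genes tested (edgeR goodness of fit, Benjamini-Hochberg adjusted p under 0.05). Unadjusted p-values of the 9 genes in this edgeR test ran from 0.467 for BR6OX2 to 0.959 for BIN2, so 0 lay under 0.05, and DESeq2 marked 0 as dispersion outliers. Without replicate 1, edgeR called 0 of the 9 against 0.313% of all genes. Counting error alone is a lower bar, and 9 of 9 varied beyond it by a Poisson chi-square test with Benjamini-Hochberg adjustment, against 78.5% of all genes tested.

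No gene of the 9 differed by over 2-fold between any 2 libraries. Of all detected genes, 11.2% did so between replicates 1 and 2, 13.9% between replicates 1 and 3 and 0.194% between replicates 2 and 3. The farthest of the 9 was BR6OX2, whose log2(CPM + 0.5) was 0.62 higher in replicate 1 than the mean of the other libraries. BAK1 was 0.43 lower and CPD 0.32 lower on that scale, whereas BIN2 differed by −0.04. Between replicates 2 and 3 the difference was largest for BRI1, at −0.35.

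Replicate 1 had the highest value of 3 of the 9 genes (BES1, DET2 and BR6OX2), against 46.1% of all detected genes, and the lowest value of 4 (BAK1, BZR1, DWF4 and CPD), against 43.3%. These directions depend partly on scaling: with total counts instead of TMM, the median log2 difference of replicate 1 from the others over all detected genes was 0.17 in place of 0.02. On that scale 4 of the 9 were highest in replicate 1, with BIN2 added, against 57.5% of all detected genes, and 2 were lowest (BAK1 and CPD), against 32.6%. The differences of BRI1 and BIN2 turned to 0.02 and 0.13. By TMM, root hair markers and 4 of the 5 other root markers were lower in replicate 1, SCR only slightly, as given above. Their part in these differences was not tested.

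**Figure D3:**
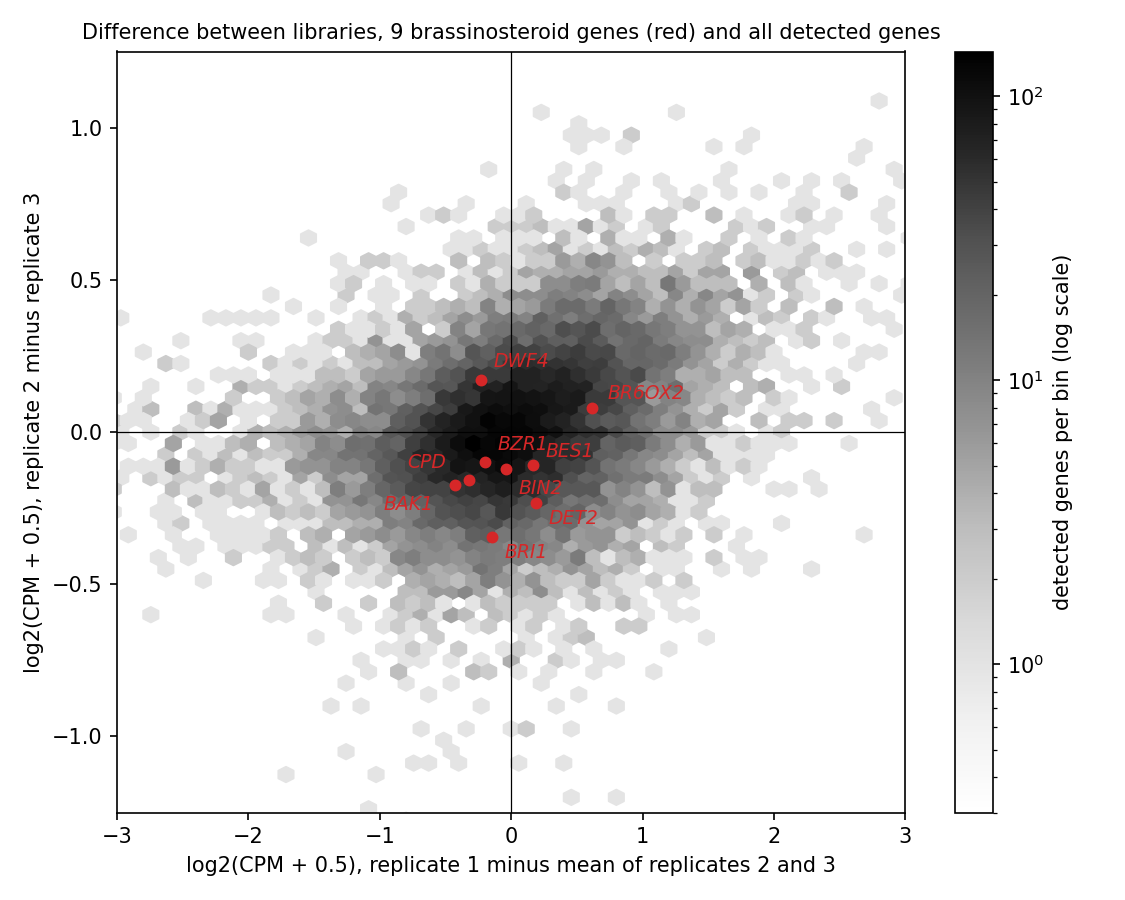
Difference of log2(CPM + 0.5) between replicate 1 and the mean of replicates 2 and 3 (horizontal axis) and between replicates 2 and 3 (vertical axis); grey bins count detected genes on a log scale, 70 genes lie outside the axes, and red points are the 9 detected brassinosteroid genes. All 9 lie inside the main cloud, from −0.43 for BAK1 to 0.62 for BR6OX2 on the horizontal axis.

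The wider pathway was read from a list of 75 genes in 11 roles, the 10 genes included. Of the other 65 genes 60 were detected and 61 were tested, and 0 of the 61 varied more than genes of similar abundance in the same edgeR test. At an unadjusted p under 0.05 there were 3 of the 61, namely BEE2, BAT1 and STE1, with Benjamini-Hochberg adjusted p-values of 0.183, 0.307 and 0.627 over all genes in edgeR, and DESeq2 marked 0. Between replicates 1 and 2, 5 of the list's detected genes differed by over 2-fold, and between replicates 1 and 3 there were 4, against 11.2% and 13.9% of all detected genes. They were STE1 and BAT1, lower in replicate 1, and BIM3, BEE2 and, against replicate 2 only, BSK8, higher in replicate 1. SOB7, which fell short of detection, also differed by over 2-fold, at 0.647, 1.90 and 2.11 CPM in replicates 1, 2 and 3. These genes are named here because they were seen to differ.

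All 9 listed genes of sterol synthesis were detected. DWF1, which makes campesterol, the sterol precursor of the hormone, stood at 158 ± 26.98 CPM per kb and the sterol methyltransferase gene SMT2 at 121 ± 37.8 (SD, n = 3). The lowest were FK, a sterol C-14 reductase gene, at 10.2 ± 1.56 and SMT3, another methyltransferase gene, at 27.3 ± 8.31. Replicate 1 was the lowest library for 8 of the 9, by TMM and by total counts alike, against 43.3% of all detected genes by TMM, with a median log2 difference of −0.41 from the others. STE1, a sterol desaturase gene, was the farthest, at 14.7, 31.6 and 36.5 CPM per kb in replicates 1, 2 and 3.

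Of 6 genes of hormone inactivation 4 were detected. The acyltransferase-like gene BAT1 and the reductase-like gene BEN1 led, at 16.3 ± 8.01 and 14.9 ± 4.14 CPM per kb (SD, n = 3). The lowest were SOB7, a P450 gene, at 0.784 ± 0.399 and the glucosyltransferase gene UGT73C6, listed at 0 in every library. All exons of UGT73C6 are overlapped by another annotated gene, so its 0 is uncertain. BAT1 was at 7.44, 18.3 and 23.1 CPM per kb in replicates 1, 2 and 3, and the median log2 difference of replicate 1 over the 4 detected genes was −0.49.

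Close to the receptor, the inhibitors BIR3, which keeps BAK1 from the receptor, and BKI1, which binds BRI1, stood at 30.0 ± 5.56 and 9.76 ± 0.658 CPM per kb (SD, n = 3). Among the receptor-like cytoplasmic kinases, which relay the signal from BRI1, 7 of 8 were detected. BSK1 and BSK3 led at 27.7 ± 2.48 and 14.1 ± 0.319 CPM per kb. CDG1, with 1, 0 and 0 counts, and BSK2, at 3.89 ± 0.0611 CPM per kb, were lowest.

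Among 14 genes listed as partner or basic helix-loop-helix factors of the pathway, 12 were detected. HAT1, a homeodomain repressor gene, stood at 58.5 ± 10.9 CPM per kb and BEE3, an early brassinosteroid response gene, at 47.4 ± 3.94 (SD, n = 3). CES, a basic helix-loop-helix gene, was listed at 0 in each library and TCP1, a gene of the TCP factor class, had 3, 1 and 0 counts. BEE2, a paralogue of BEE3, stood at 75.9, 31.4 and 27.8 CPM per kb in replicates 1, 2 and 3. The median log2 difference of replicate 1 over the 12 detected genes was 0.38. Replicate 1 was the highest library for 6 of the 12, against 46.1% of all detected genes, and the lowest for 4, against 43.3%.

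**Figure D4:**
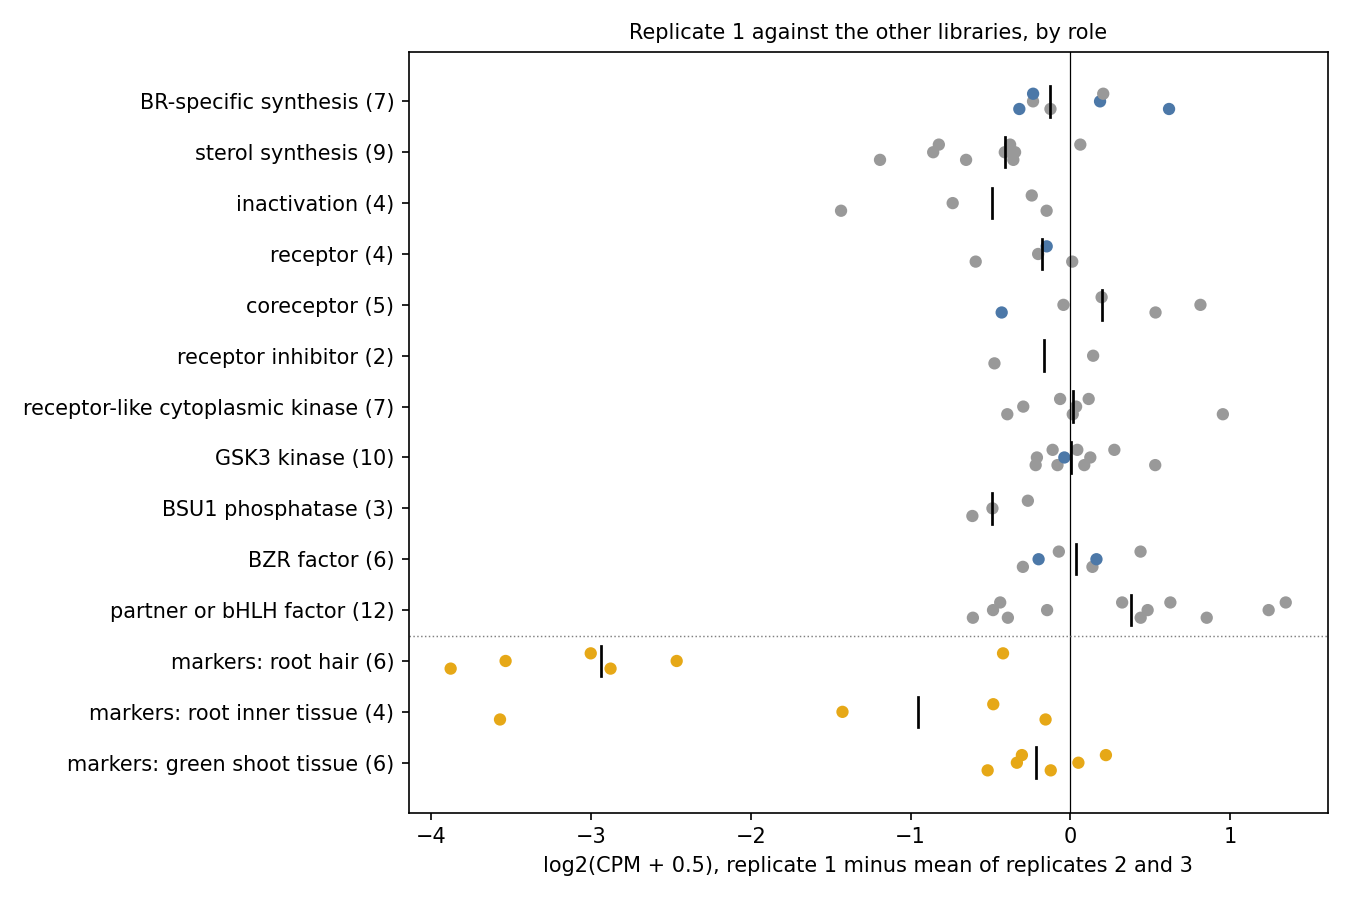
Difference of log2(CPM + 0.5) between replicate 1 and the mean of replicates 2 and 3 for each detected gene of the brassinosteroid list, by role, and for marker genes with any count (orange); blue points are the 10 genes where detected, black bars are medians and numbers in parentheses are genes plotted. Sterol synthesis lies mostly left of 0 with a median of −0.41, and the partner and bHLH genes have a median of 0.38. Of those 12 partner and bHLH genes, 6 were highest and 4 lowest in replicate 1. The root hair markers have the median farthest left, with single genes from −3.88 for PRP3 to −0.42 for RSL4. The row labelled root inner tissue holds the other root markers, not all of them of inner tissue, and CASP1 in it lies at −3.57.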

How the data were processed

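RNA sequencing counts of 3 wild-type libraries were analysed. The authors deposited raw counts for each gene as whole numbers, in 1 table with a column for each of the 3 libraries and no column of any other sample (0). HISAT2 2.1.0, featureCounts 1.6.1, DESeq2 and TAIR10 are named in the submitters' processing notes, with no role or order. The annotation, the strand setting and the handling of multi-mapping reads were not given in the sources used here.

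Symbols, coordinates, exon lengths and sequences came from RefSeq's TAIR10.1, to which all 75 listed identifiers matched. CPM used TMM library sizes (edgeR 4.0.16, R 4.3.3), levels between genes used CPM per kb with a pseudocount of 0.1, and differences between libraries used log2(CPM + 0.5). Spread was tested over all 19016 genes kept by filterByExpr, with an intercept-only edgeR fit, its test of goodness of fit against the trended dispersion, and Benjamini-Hochberg adjustment at 0.05. DESeq2 1.42.0 dispersion outliers and other scalings, filters, lengths, pseudocounts and left-out libraries were alternatives, of which the exon length not shared with another gene was chosen after seeing the data. The fits were tested on simulated data. Python 3.11.15, pandas 2.3.3, SciPy 1.17.1 and statsmodels 0.14.6 did the rest. With 32967215, 31761722 and 27069921 counts, 3 counts stand for 0.0843, 0.0981 and 0.115 CPM, and intervals cover counting error only.

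The 10 genes, the wider list, the pairs and the markers were chosen with earlier results of these data known. The text names each of the 10 genes and each gene of their families, any gene of the list passing the goodness-of-fit test (0 did), and the highest and lowest 2 genes of every other role by mean CPM per kb. Genes differing by over 2-fold between libraries, BIM3 and BSK8 among them, were named after their values were seen.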

Additional observations from a re-analysis of the deposited data

How the results depend on the processing

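The count of detected genes among the 10, the counts varying beyond the trend, the count past 2-fold and the count of pairs in the same order stayed within 1.5 times their values under each alternative run: total counts or DESeq2 size factors, other detection thresholds, no filter on low counts, a pseudocount of 1, other gene lengths, DESeq2 outliers and each library left out. Without the length correction the median log2 level of the 10 genes was 5.04 in place of 3.87, since it is then per gene and not per kb, and the log2 ratio of DWF4 to DET2 reversed to 0.42. By coding length or without the length correction, 18 pairs in place of 19 kept 1 order, as DWF4 with BR6OX2 did not; without replicate 1, 20 did. No paired analysis was possible because all libraries belong to 1 group. Depth limits BSU1, with 27 counts in all, and a pseudocount of 1 changed its log2 ratio to BSL1 to −4.17 in place of −6.55.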
